A study of Mus musculus with 282 samples.

Results

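The genes described are 43 genes of the DNA replication fork, of replication origins and of deoxynucleotide synthesis, chosen by gene symbol from the 49671 Ensembl genes counted in single hematopoietic stem cells (HSCs) of mouse bone marrow. All 43 symbols were found in the table. Every cell carried rtTA/rtTA at Rosa26 and H2B-GFP/H2B-GFP at Col1a1, that is, a doxycycline-controlled transactivator and a histone-GFP fusion under its control. Induction with doxycycline was not done in any cell, so the series holds 1 group and no control group. The donors were 6 mice of 12 to 22 weeks, used in 2 experiments, and single cells were sorted as LSK (lineage-negative, Sca-1-positive, Kit-positive) CD48-/lo CD150+. Which mouse a cell came from is not labelled, so the cells count as 1 sample, no test was made, and all values are descriptions. Library series 29 (codes HSC-3 and HSC-4) and 32 (codes HSC-2 to HSC-5) crossed with the HSC code gave 6 sets of cells, written for example L29 HSC-3. The meaning of the code is not labelled, and the spread over sets may be technical.

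Of 282 wells, 232 held at least 100000 gene counts and 1000 genes and were kept, with 22 to 46 cells per set. The median kept cell had 280096 gene counts (range 116009 to 1680714). Cells of L29 HSC-4 differed from the rest, with 4151 genes in the median cell and 6.66% of counts from mitochondria, while the other sets had 5126 to 5685.5 genes and 3.28% to 3.73%. Detection means 10 CPM or more in a cell, where CPM are counts scaled to a common total, and 10 CPM is 2.80 reads in the median cell. A single kept cell, of L32 HSC-3, had fewer gene reads than spike-in reads, and without it 34 genes still reached 10% of cells and 281 pairs, in place of 276, had a phi (co-detection, defined with the pairs) of at least 0.2. Of 18 HSC marker genes, all were detected in at least 10% of cells and 13 in at least 50%, and Slamf1, which encodes the sort marker CD150, in 19.4%. Of 10 myeloid and 10 lymphoid markers, 0 reached 10% of all cells, although Ebf1 reached 23.3%, Itgam 15.2% and Nkg7 13.6% in their highest set. Elane, Ctsg, Ms4a1, Cd3g and Il7r were detected in 0 of 232 cells, which allows a share of up to 1.29% (3 cells of the total). Each detected in at least 10% of cells were 2 of 10 erythroid markers, 4 of 8 megakaryocyte markers and 3 of 8 endothelial and stromal markers.

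DNA replication starts at origins, where the origin recognition complex, Cdc6 and Cdt1 load the Mcm helicase. Cdc45 and the GINS complex switch the helicase on, primase with polymerase alpha lays down primers, and polymerases delta and epsilon extend them on the sliding clamp Pcna, which the replication factor C complex opens and closes around DNA. Many of these genes are known targets of E2F transcription factors and are made most as a cell enters S phase. Most HSCs of an adult mouse are known to be out of the cell cycle.

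Promoter sequences are shown because the E2F site is a known feature of such genes, and because their share can be set against all promoters. RefSeq promoter entries (build GRCm38.p6, 250 bases before to 50 after the start) were found for 35 of the 43 genes. The letters searched, on both strands, were TTTCCCGC, TTTCGCGC, TTTGCCGC and TTTGGCGC, forms of the E2F site. They occurred in 12 of 35 genes (34.3%), against 3.29% of coding genes. The 12 genes were Casp8ap2, Cdc6, Cdca7, Cdt1, Clspn, Dtl, Gins3, Lig1, Orc1, Pola1, Pold1 and Rfc3. CCAAT on either strand, the letters bound by NF-Y, was present in 60.0% of the 35 genes and in 42.3% of coding genes. TTTGAA or TTCGAA, letters of the cell cycle homology region, were present in 17.1% of the 35 genes and in 20.2% of coding genes. A match is a description of the letters and shows no binding. Upstream bases of 4 of the 12 genes follow on the strand of the gene, with the E2F letters in capitals, at chr4:32615234-32615361 (plus strand), chr2:72476088-72476158 (plus strand), chr1:191575545-191575612 (minus strand) and chrX:93632226-93632353 (minus strand).
Casp8ap2: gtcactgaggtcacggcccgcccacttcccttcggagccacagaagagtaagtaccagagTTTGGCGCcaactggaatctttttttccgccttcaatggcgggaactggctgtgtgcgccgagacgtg
Cdca7: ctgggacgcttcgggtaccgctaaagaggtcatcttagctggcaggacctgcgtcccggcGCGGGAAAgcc
Dtl: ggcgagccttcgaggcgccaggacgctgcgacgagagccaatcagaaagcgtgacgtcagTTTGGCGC
Pola1: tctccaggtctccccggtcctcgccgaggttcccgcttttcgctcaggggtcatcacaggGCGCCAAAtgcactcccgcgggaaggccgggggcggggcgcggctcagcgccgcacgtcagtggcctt
Detection of the genes with and without these letters overlapped. The 12 genes with them were found in a median of 15.3% of cells (range 3.45% to 44.8%), and the 23 genes without them in a median of 23.7% (range 3.88% to 59.9%).

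Detection spanned a wide range, from a clamp found in most cells to a checkpoint adaptor found in 8 cells. Of the 43 genes, 34 were each detected in at least 10% of cells (the same was true of 19.5% of all 49671 genes). Of the list, Pcna and Rfc2 reached 50% of cells (4.28% of all genes did), 32 genes lay between 10% and 50%, and 9 genes marked fewer than 10% of cells. The genes nearest the 10% line were Ung at 10.3% and Cdc6 at 9.48%, and those nearest the 50% line were Rfc2 at 57.8% and Cdca7 and Slbp at 44.8%. Over the 34 genes the median share was 23.5% of cells, against 27.6% over all 9689 genes at or above 10%. Depth was uneven over the sets, and 18 of the 43 genes had their lowest share in L29 HSC-4, the set with the fewest genes per cell. The same count over all genes was not made, so it is not known whether 18 is unusual. The part of RNA quality in the lower shares of L29 HSC-4 was not tested.

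**Figure D1:**
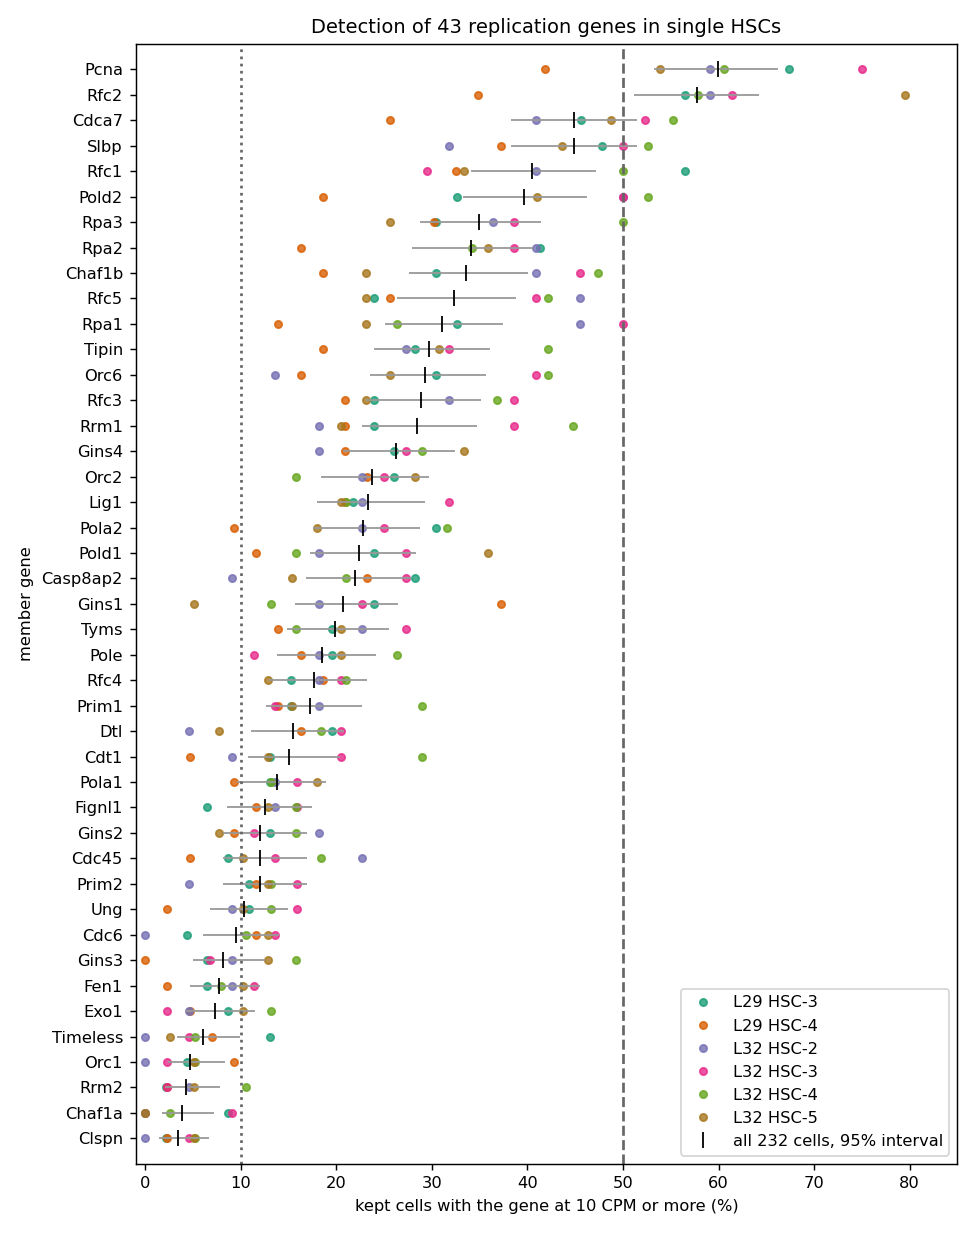
Share of kept cells with each of the 43 genes at 10 CPM or more (x axis, percent), genes ordered by that share. Points are the 6 sets, ticks the share over all 232 cells, bars its 95% interval, and vertical lines mark 10% and 50%. Pcna and Rfc2 lie past 50% and Rrm2, Chaf1a and Clspn under 5%. Points of L29 HSC-4 lie lowest for 18 genes, a count not made over all genes.

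Genes of the clamp and its loader ranged from the most widely detected of the list to the middle of it. Pcna, the sliding clamp, was found in 59.9% of cells (95% Clopper-Pearson interval 53.3% to 66.3%), with a lowest set of 41.9%, a median set of 59.8% and a highest set of 75.0%. Its value is uncertain, because the processed pseudogene Pcna-ps2 on chromosome 19 was also called in 57.3% of cells and 132 cells held both. Summing the pair gave 61.6% of cells. Rfc2, a clamp loader subunit, was found in 57.8% of cells, with 34.9%, 58.5% and 79.5% in the lowest, median and highest set. The large subunit Rfc1 followed at 40.5%, then Rfc5 at 32.3%, Rfc3 at 28.9% and Rfc4 at 17.7%. Rfc1 ranged over sets from 29.5% to 56.5% (median 37.1%) and Rfc4 from 12.8% to 21.1% (median 18.4%), so the ranges of these subunits did not overlap, while those of neighbours in the order did. At least 1 of the 6 genes was found in 212 of 232 cells, and all 6 in 8 cells.

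Polymerase subunits were unevenly detected. Pold2, the accessory subunit of polymerase delta, was found in 39.7% of cells (lowest, median and highest set 18.6%, 45.5% and 52.6%). The catalytic subunits were found in fewer cells, Pold1 of polymerase delta in 22.4% (11.6%, 21.1% and 35.9%) and Pole of polymerase epsilon in 18.5%. In the primer-making complex, Pola2 was found in 22.8% of cells, the primase Prim1 in 17.2% (13.6%, 15.3% and 28.9%), the catalytic Pola1 in 13.8% and the primase partner Prim2 in 12.1%. All 4 genes of that complex were together in 3 cells. The single-strand binding proteins stood close to each other, Rpa3 at 34.9% (SD over 6 sets 8.61), Rpa2 at 34.1% (SD 9.37) and Rpa1 at 31.0% (SD 13.7), differences smaller than the spread over sets. Lowest, median and highest sets were 25.6%, 33.4% and 50.0% for Rpa3, and 16.3%, 37.3% and 41.3% for Rpa2. On the lagging strand, the ligase Lig1 was found in 23.3% of cells (20.5%, 21.4% and 31.8%) and the flap nuclease Fen1 in 7.76%.

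Origin genes split into common and rare ones. Orc6 was found in 29.3% of cells and Orc2 in 23.7%, while Orc1, the large ATPase of the origin recognition complex, was found in 4.74% (11 cells; 0%, 4.74% and 9.30% in the lowest, median and highest set). Dtl, which targets Cdt1 for destruction, was found in 15.5% of cells. Cdt1 was found in 15.1% (lowest, median and highest set 4.65%, 12.9% and 28.9%), and Cdc6, the other loading factor, in 9.48% (0%, 11.1% and 13.6%). The 0% of Orc1 and Cdc6 was 0 of the 22 cells of L32 HSC-2, a count that allows a share of up to 13.6% (3 cells of the 22). No cell of 232 held all 6 genes of this group. In the helicase activator, Gins4 was found in 26.3% of cells, Gins1 in 20.7%, Cdc45 in 12.1% (4.65%, 11.9% and 22.7%), Gins2 in 12.1% and Gins3 in 8.19%.

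Gins1 and Fen1 had the lowest median CPM in their positive cells, a value not scaled to gene length. In the cells called positive, Gins1 had a median of 18.4 CPM and Fen1 of 29.6 CPM, while the other 41 genes had medians of 59.5 to 405 CPM. At least 1 read of Gins1 was present in 68.5% of cells, and 7.76% had it at 50 CPM. Fen1 reached 50 CPM in 0.862% of cells. Gins1 had its highest share, 37.2%, in L29 HSC-4, against 5.13% to 23.9% in the other sets.

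Fork protection, chromatin and nucleotide genes each joined a common gene to a rare one. Tipin, of the fork protection complex, was found in 29.7% of cells, and its partner Timeless in 6.03% (0%, 4.90% and 13.0% in the lowest, median and highest set). Clspn, the adaptor that carries the stalled-fork signal to the checkpoint kinase, was found in 3.45% (0%, 3.44% and 5.26%). Chaf1b of the chromatin assembly factor was found in 33.6% of cells and its large subunit Chaf1a in 3.88% (0%, 1.32% and 9.09%), with 0 cells in 3 of 6 sets. Slbp, which binds the stem-loop of histone mRNAs, was found in 44.8% (31.8%, 45.7% and 52.6% in the lowest, median and highest set). Casp8ap2, which acts in histone gene expression, was found in 22.0%. The large subunit of ribonucleotide reductase, Rrm1, was found in 28.4% of cells and the small S phase subunit Rrm2 in 4.31%. The sets did not overlap between those subunits, since Rrm1 ranged from 18.2% to 44.7% and Rrm2 from 2.17% to 10.5% with a median set of 3.44%. Thymidylate synthase, Tyms, was found in 19.8% of cells. Of the repair genes, Fignl1, an ATPase of homologous recombination, was found in 12.5% (6.52%, 13.2% and 15.9%), the uracil glycosylase Ung in 10.3% (2.33%, 10.6% and 15.9%) and the nuclease Exo1 in 7.33% (2.27%, 6.67% and 13.2%). Cdca7, the partner of the remodeller Hells, was found in 44.8% (25.6%, 47.2% and 55.3%).

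Mean levels of the genes were compared per kilobase of exon in the deposited gene models. Mean level over the 6 sets was highest for Cdca7 at 56.5 ± 11.2 CPM per kb (SD, n = 6 sets), then Pold2 at 49.0 ± 18.4, Tipin at 47.6 ± 5.82, Gins4 at 45.0 ± 10.6 and Pcna at 42.8 ± 9.98. These neighbours did not differ beyond their spread over sets. Lowest were Clspn at 0.753 ± 0.773 CPM per kb and Fen1 at 1.26 ± 0.701. Exons of 14 of the 43 genes overlap those of another gene, among them Fen1, Orc1, Timeless, Chaf1a, Rfc2, Lig1 and Slbp. Strand and shared reads may have been counted in any way, as the sources used here do not state it, so their levels are uncertain.

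Near-empty wells gave a measure of background reads. In L32 HSC-2 and L32 HSC-3, 38 near-empty wells held 616795 gene reads, set here beside the 66 kept cells of those sets. A higher summed CPM in the near-empty wells was seen for 5 of the 43 genes, and 1 of these was among the 34 at or above 10% of cells (21.3% of all such genes were higher there). They were Casp8ap2 (37.3 CPM, against 32.4 in kept cells), Gins3 (30.8 against 8.56), Timeless (6.49 against 2.62), Fen1 (4.86 against 4.67) and Orc1 (1.62 against 1.07). These rest on 1 to 23 reads each. Clspn and Gins4 had 0 reads there. The part of such reads in the shares of Casp8ap2, Gins3, Timeless, Fen1 and Orc1 was not tested. Of the HSC markers, Tek (353 CPM, against 28.5 in kept cells), Esam (668 against 254) and Erg (293 against 45.9) were higher there. The other HSC markers were not. The shares of Tek (12.9% of cells), Esam and Erg are therefore uncertain.

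Most cells held few of the genes and a small tail held many. A kept cell held 0 to 40 of the 43 genes, with quartiles of 5, 8 and 11. The medians of the sets were 8 and 4 genes for HSC-3 and HSC-4 of library series 29, and 6, 9, 9 and 8 genes for HSC-2 to HSC-5 of series 32. Apart from this bulk, 23 cells (9.91%, interval 6.39% to 14.5%) held at least 20 of the genes, a line drawn after the values were seen. These cells came from every set, 4 and 3 of them in series 29 and 2, 5, 6 and 3 in series 32, or 6.98% to 15.8% of a set. The summed level of the 43 genes in tail cells ranged from 1170 to 17641 CPM with a median of 9103 CPM, and 3 of the 23 lay under the mean of all kept cells, 2526 CPM. Of these 3, 2 were wells of plate 2, column 8 of L32 HSC-4, whose 7 wells held 6550 to 8098 genes. Without these 7 wells 9.33% of cells were in the tail, and 4 of 31 cells (12.9%) of that set. Between bulk and tail lay 9 cells with 15 to 19 genes. Intervals treat the pooled cells as independent, so they leave out the spread between sets or mice. The reads are PCR copies without molecular identifiers.

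**Figure D2:**
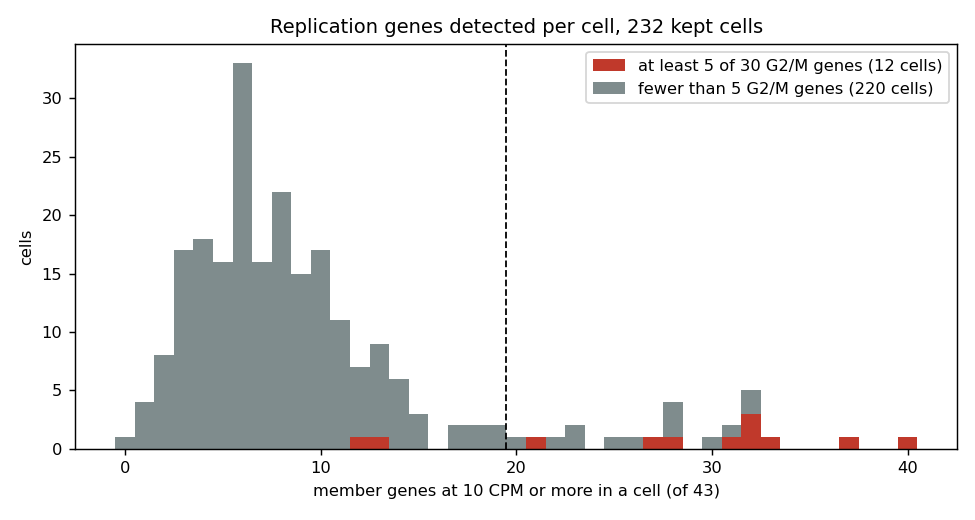
Number of kept cells (y axis) by how many of the 43 genes they held at 10 CPM (x axis), with cells holding at least 5 of 30 G2/M genes in red. The bulk centres on a median of 8 genes, and right of the dashed line 23 cells form a thin tail from 20 to 40 genes, 10 of them red.

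Total counts moved little with the number of the genes, and genes per cell and RNA per cell moved with it. Cells with 30 or more of the genes had a median total of 329121 counts, those with 20 to 29 had 276598, cells with 5 to 9 had 289010 and cells with 0 to 4 had 248181. Genes detected per cell had medians of 6483 in cells with 30 or more, 5147.5 in cells with 5 to 9 and 4335.5 in cells with 0 to 4. Over the 232 cells, which share libraries and sets, Spearman's rho of the number of the genes was 0.16 with total counts, 0.65 with genes detected and 0.53 with gene reads per spike-in read. The part of genes per cell in the tail was not tested. Gene reads per spike-in read, a measure of RNA per cell, had medians of 26.4 in cells with 30 or more, 22.8 in those with 20 to 29, 17.3 in those with 5 to 9 and 12.7 in those with 0 to 4. When every cell was thinned to 100000 reads and 1 read counted as detection, 25 cells held at least 20 of the genes, and these included all 23.

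A few genes were in nearly all cells of the tail. Pcna, Rfc2 and Slbp were found in 23 of 23, and in 55.5%, 53.1% and 38.8% of the other 209 cells. Lig1 and Cdca7 were found in 22 of 23 (95.7%), and in 15.3% and 39.2% of the others. Since the tail was defined by the genes themselves, these shares describe it and support nothing.

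**Figure D3:**
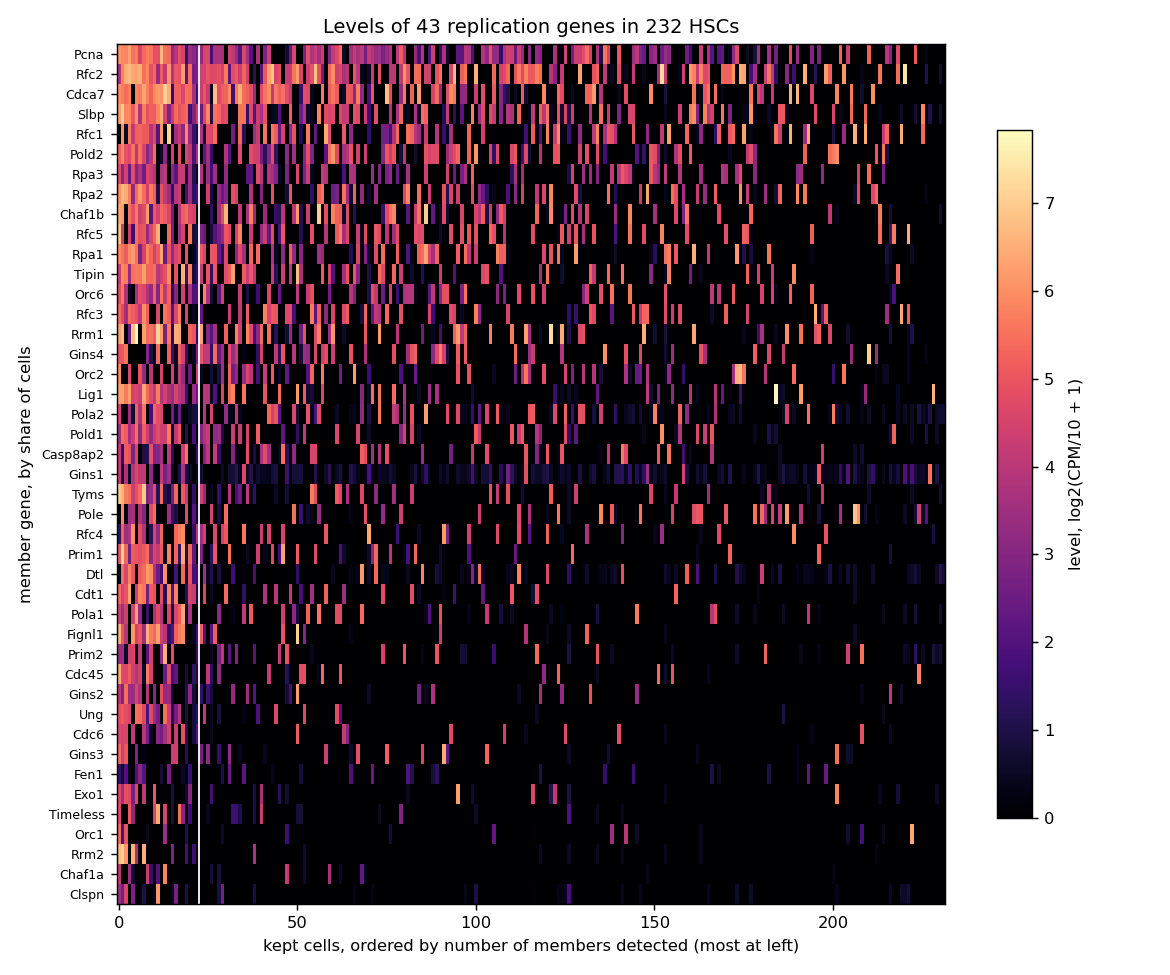
Level of each of the 43 genes, as log2(CPM/10 + 1) (colour), in each of the 232 kept cells, cells ordered by the number of the genes detected (x axis, most at left) and genes by their share of cells (y axis). Left of the white line lie the 23 cells with at least 20 genes, in which rare genes such as Rrm2, Ung and Fignl1 are concentrated; Gins1 shows a low level across most cells.

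Within the list, rarer genes tended to keep fuller company, with exceptions. Company, the number of other genes of the list in a positive cell, was not adjusted for genes detected per cell. The number of the genes had a Spearman's rho of 0.65 with genes detected. Rrm2-positive cells held a median of 31 other genes of the list, against 7 in Rrm2-negative cells, and 9 of the 10 lay in the tail. Clspn-positive cells held 29, against 7.5 in negative cells, with 6 of 8 in the tail. Chaf1a and Ung followed with 27 each and Fignl1 with 26, against 7 in the negative cells of each. Cdc6 had 23.5, Timeless 23, Exo1 21 and Cdt1 20, again against 7. Among the 9 rare genes, Orc1 stood apart with 11, against 8 in negative cells, and Fen1 with 11, against 7. Gins3 had 16, against 7. Of the rare genes, the background measure above named Orc1, Fen1, Timeless and Gins3, on 1, 3, 4 and 19 reads. The part of background reads in their company was not tested. For the common genes the gap was small, since Pcna-positive cells held 8 others, against 6 in negative cells, and Rfc2-positive cells 9, against 6. Pole and Gins1 showed no such excess, with 7 other genes in positive cells, against 8 for Pole and 7.5 for Gins1 in negative cells.

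**Figure D4:**
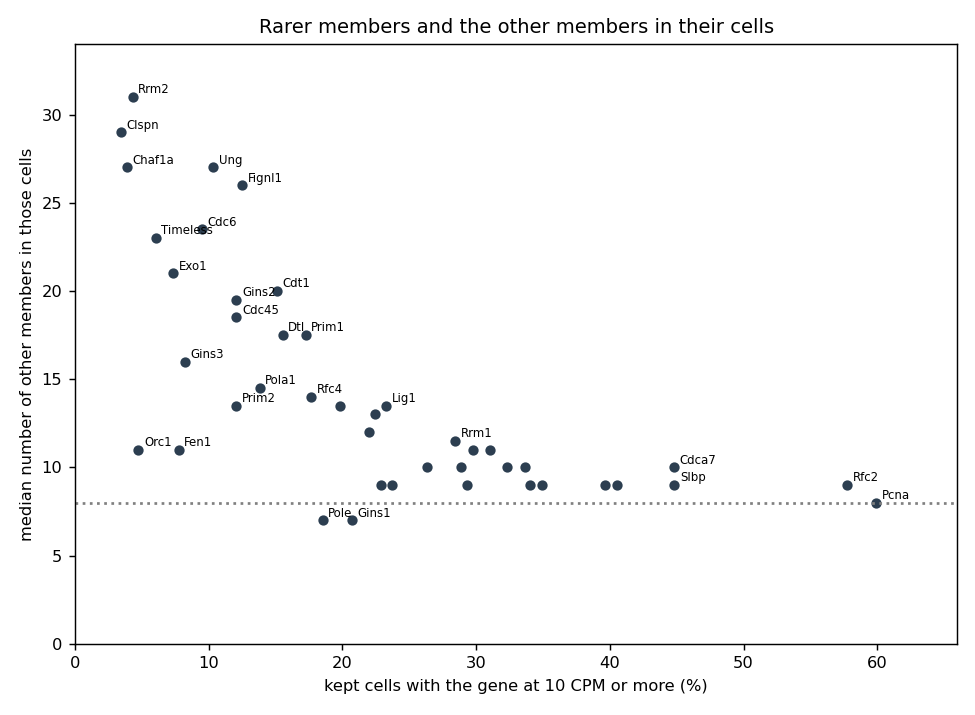
Share of kept cells with each gene (x axis, percent) against the median number of other genes of the list in its positive cells (y axis). Rrm2, Clspn, Chaf1a, Ung and Fignl1 stand at 26 to 31 other genes and at most 12.5% of cells, while Orc1 and Fen1 are as rare with 11; Pcna and Rfc2 lie at the right with 8 and 9.

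Pairs of these genes were found together in the same cells more often than pairs of other genes. Co-detection was measured as phi, the correlation of the 2 yes-or-no calls across the 232 cells, after the set, the number of genes detected and the total count of each cell had been taken out. Over all pairs of the 43 genes the median adjusted phi was 0.147 (0.189 before adjustment), and 859 pairs (95.1%) were above 0. Above 0 were also 56.7% of all pairs among genes found in at least 10% of cells. At or above 0.2 were 174 of the 561 pairs among the 34 genes found in at least 10% of cells (31.0%, median 0.151). Of all pairs among genes found in at least 10% of cells 0.486% were, with a median of 0.010. Over all 43 genes, the rarer ones included, 276 pairs (30.6%) were at or above 0.2. Fewer such pairs came with detection at 1 CPM (153) and after thinning each cell to 100000 reads (153, median phi 0.11). Without the 12 cells richest in G2/M genes, 10 of them in the tail, there were 120 (median phi 0.092). Detection at 50 CPM gave more, 337 pairs (median phi 0.16). A gene of the list paired with a gene outside it gave a median of 0.024, with 1.20% at or above 0.2. All pairs share the same cells and libraries. Genes of the same complex or role were not closer than the rest, with a median of 0.12 over 68 pairs of the same role and 0.15 over 835 pairs of different roles.

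Fignl1 and Ung led the pairs. Fignl1 was found in 18 of 24 Ung-positive cells (75.0%, interval 53.3% to 90.2%), against 5.29% of Ung-negative cells (2.67% to 9.27%), with an adjusted phi of 0.62. Prim1 was found in 72.4% of Fignl1-positive cells, against 9.36% of Fignl1-negative cells (0.54). Lig1 was found in 79.3% of Fignl1-positive cells, against 15.3% of the negative ones (0.48). Fignl1 was likewise found in 63.6% of Cdc6-positive cells, against 7.14% of Cdc6-negative cells (0.48). Most cells with both genes of these pairs lay in the tail, 16 of 18 for Ung and Fignl1 and 16 of 21 for Fignl1 and Prim1. For Fignl1 and Lig1 it was 19 of 23, and for Cdc6 and Fignl1 13 of 14. The tail was defined by the genes themselves, so these counts are a description. By median phi with the other 42 genes the order was Fignl1 (0.27), Prim1 (0.24) and Ung (0.23) at the top, and Pole (0.04) and Orc2 (0.06) at the bottom. Pairs within 1 complex differed in this respect, since Chaf1a with Chaf1b gave 0.08 and Rrm2 with its partner Rrm1 gave 0.14, while Pola1 with Prim1 gave 0.37. Rrm2 with Tyms, separate enzymes of deoxynucleotide synthesis, gave 0.38, and all 10 Rrm2-positive cells held Tyms.

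**Figure D5:**
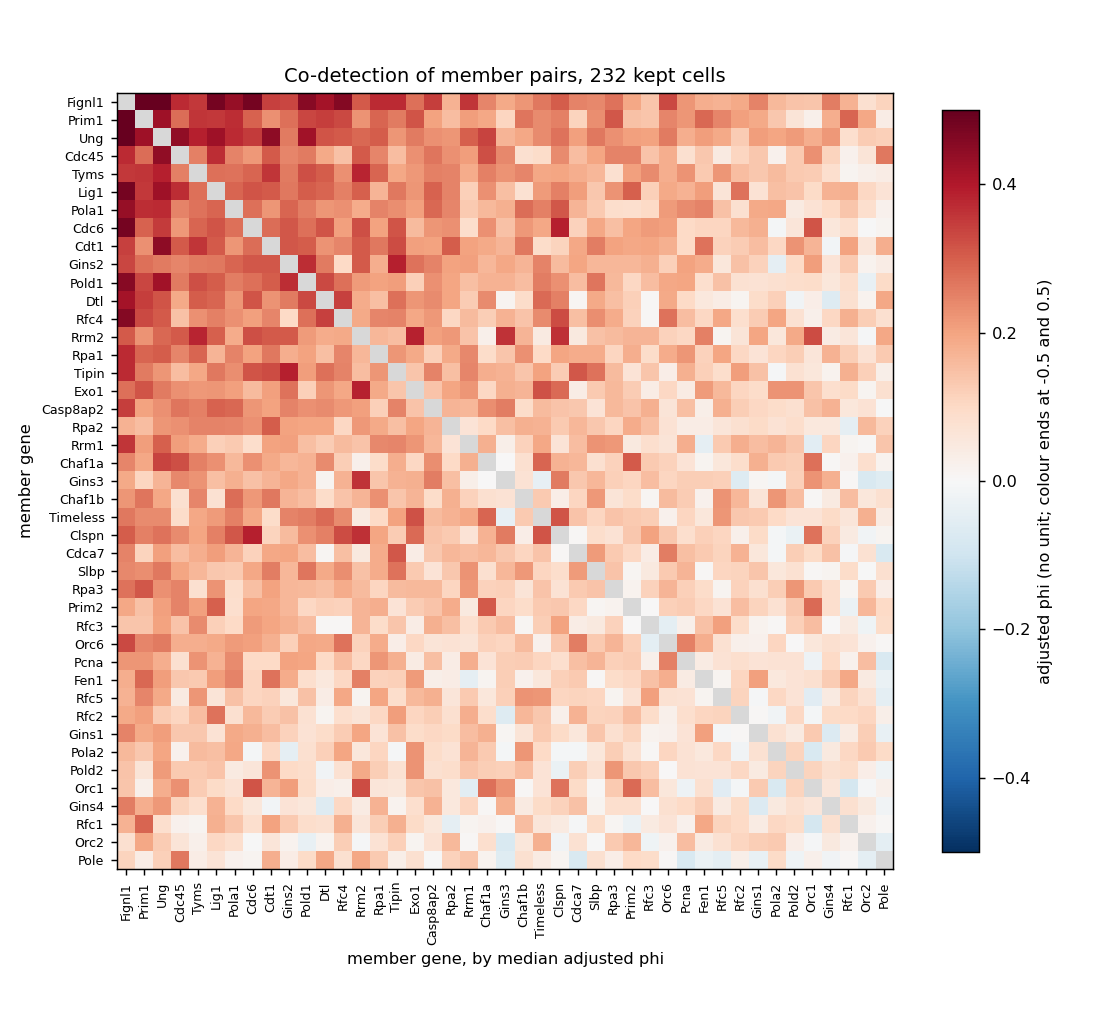
Adjusted phi (colour) for each pair of the 43 genes over 232 cells, genes ordered on both axes by their median phi. Fignl1, Prim1 and Ung at the top are red with most genes (medians 0.27, 0.24 and 0.23), and Orc2 and Pole at the bottom are near 0.

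Without the 23 tail cells, the median adjusted phi over the same pairs was 0.020 and 15 pairs were at or above 0.2. These cells were picked for holding many of the genes, so a lower phi without them follows from the choice and supports nothing. By set the median was 0.262 in L32 HSC-2 (22 cells), 0.218 in L32 HSC-4, 0.139 in L32 HSC-3, 0.107 in L29 HSC-3, 0.063 in L29 HSC-4 and 0.061 in L32 HSC-5. It was above 0 in each set.

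Genes of mitosis marked fewer cells and overlapped the tail in part. The most widely found of 30 G2/M genes were Bub3 (62.1% of cells), Kif23 (16.4%), Top2a (12.5%) and Cenpa (10.8%). At least 5 of the 30 were held by 12 cells, and 10 of those 12 were in the tail. These 12 held 12 to 40 of the replication genes, with a median of 31.5. Conversely 13 of the 23 tail cells held fewer than 5 G2/M genes. Cells with 30 or more replication genes held a median of 7 G2/M genes, cells with 20 to 29 held 3, and cells with 5 to 9 held 1. Top2a, the topoisomerase of S phase and mitosis, was found in 65.2% of tail cells, against 6.70% of other cells, and the mitotic kinase Cdk1 in 43.5%, against 6.22%. Kif23 and Cenpa, of the mitotic spindle and centromere, were not more frequent there, with 8.70% and 4.35% of tail cells, against 17.2% and 11.5% of the others. A phase was not called for any cell.

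For each gene a partial Spearman rho with the mean level of the G2/M genes was computed within each set, given genes detected, total counts and plate, and averaged over sets. The average was above 0 for all 43 genes, and for 53.9% of all genes at or above 10% of cells. The median over the 43 genes was 0.13, against 0.008 over all genes at or above 10%. Of the 34 genes at or above 10%, 7 (20.6%) were positive in 6 of 6 sets, against 1.99% of all such genes. These were Lig1 (0.26), Tipin (0.23), Fignl1 (0.19), Cdt1 (0.18), Rfc4 (0.18), Rfc1 (0.17) and Cdca7 (0.14). With RNA content, taken as gene reads per spike-in read, the average was above 0 for 33 of the 43 genes. It was above 0 for 54.6% of all genes at or above 10% of cells. The median over the 43 genes was 0.066, against 0.009 over all genes at or above 10%. Leaving out L32 HSC-4 moved that median to 0.020. Of the 34 genes at or above 10%, 0 were positive in 6 of 6 sets, where 2.90% of all such genes were, and among the 9 rarer genes Fen1 (0.22) was.

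Other genes of the pathway, outside the 43, also ranged from common to rare. Of 8 Mcm helicase genes, 7 were found in at least 10% of cells, led by Mcm6 (56.5%), Mcm7 (42.7%), Mcm3 (38.4%) and Mcm4 (29.7%). Mcm10, which acts at helicase activation, was found in 4 cells with a median of 30 of the 43 genes. Of 22 further fork and origin genes 14 reached 10%, led by Pole4 (53.4%), Rnaseh2c (46.1%), Pold4 (44.0%) and Pole3 (37.9%). The company of its rare genes varied, where the median over all cells was 8 of the 43 genes. Chtf18-positive cells held a median of 31, Dscc1-positive and Ticrr-positive cells 28 and Dna2-positive cells 26, against 16 for Pole2, 15.5 for Atad5, 11.5 for Donson and 10.5 for Dbf4. Of 17 further nucleotide genes 16 reached 10%, led by the purine enzymes Impdh2 (82.3%) and Paics (75.4%), then Nme1 (65.5%) and Dtymk (53.9%), kinases of nucleotides. The remaining gene was thymidine kinase Tk1, an S phase enzyme, found in 6.47% of cells with a median of 31 of the 43 genes. Of 9 checkpoint genes 8 reached 10%, led by the kinases Wee1 (24.6%) and Atr (20.7%), then Rad1 (18.1%) and Rad9a (15.9%) of the checkpoint clamp. The rare Atrip, the partner of Atr, was found in 5 cells with a median of 6 of the 43 genes.

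In the E2F and Rb family, 7 of 13 genes reached 10% of cells, led by the pocket protein Rbl2 (47.4%), the E2F partners Tfdp2 (34.1%) and Tfdp1 (32.8%), and E2f4 (22.4%). Its rare genes differed in company. E2f1, an activator, was found in 5.60% of cells with a median of 23 of the 43 genes, and E2f7, a repressor, in 3.88% with a median of 30. E2f8 and E2f2 were found in 3 cells and 1 cell with 32. E2f5 was found in 6.90% of cells with a median of 8, and Rb1 in 5.17% with a median of 9. Of 10 genes of S phase chromatin 9 reached 10%, led by the histone-binding Rbbp4 (66.4%), then Hmgb2 (44.4%), the maintenance methyltransferase Dnmt1 (31.9%) and the chaperone Asf1a (31.5%). Its rarest gene, the chaperone Asf1b, was found in 4.31% of cells with a median of 31 of the 43 genes, and Uhrf1, which brings Dnmt1 to new DNA, in 10.8% with a median of 27. None of these genes was used to define the 43 or the tail. Over these lists, without G2/M, 18 of 79 genes were in fewer than 10% of cells. Their median company was at least 20 of the 43 genes for 11 of them, 10 to 19 for 4 and under 10 for 3. The same count over all genes in fewer than 10% of cells was not made. Company was not adjusted for genes detected per cell, so the count supports nothing particular to these lists. In near-empty wells 17 of the 79 genes had a higher summed CPM than in the 66 kept cells set beside them, and their shares are uncertain. Among the leading genes these were E2f4 (383 CPM in near-empty wells, against 28.9 in kept cells), Nme1 (316 against 103), Impdh2 (79.4 against 74.9) and Atr (25.9 against 14.5). Among the rare genes these were Dna2 (56.7 against 31.7), Mcm10 (9.73 against 0.123), E2f7 (9.73 against 8.40) and E2f5 (8.11 against 2.17). Dbf4 (3.24 against 2.66), Ticrr (1.62 against 0.615) and E2f2 (1.62 against 0.041) were also higher there, and the other rare genes were not. The part of background reads in the company of these genes was not tested. The rare genes and Uhrf1 were named after their values were seen.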

How the data were processed

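Read counts per gene were deposited by the authors as a single table of all cells. The tools were GSNAP (version 2018-07-04) and featureCounts (version 1.6.2) on build mm10, per the submitters' processing notes, with Ensembl release 87 in the table's name. Template-switched cDNA of poly(A) RNA went through 22 PCR cycles and 700 pg of it into tagmentation, per the labels' protocols. Spike-in and transgene counts stayed out of totals. CPM, log2(CPM/10 + 1) values, phi of residuals of detection (on set, log total and genes detected) and partial Spearman correlations within sets were computed in Python 3.11.15 (numpy 2.4.6, pandas 2.3.3, scipy 1.17.1) and tested on simulated data. With 1 group and no animal named per cell, no test was made. No doublet caller was run on these single-cell wells. The genes, lists and alternatives were chosen with earlier results of these data known. By rule, set values were given for the 8 most and 6 least detected genes and those of the 8 closest pairs, and the 4 most detected genes of each other list were named. Alternatives were 1 and 50 CPM, thinning, other scaling, a stricter filter, other covariates, and leaving out each set, the G2/M cells, the tail or 7 wells of 1 plate column.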

Additional observations from a re-analysis of the deposited data

Results flagged for a closer look

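In 4 of 45 quantities checked over the 6 sets, 1 set lay far from the other 5 by the ratio of its gap to the whole range, where chance gives about 1 in 20, or 2.2 of 45. The primase gene Prim1 was found in 28.9% of cells of L32 HSC-4, against 13.6% to 18.2% in the other sets. In the same set the reductase subunit Rrm2 was found in 10.5% of cells, against 2.17% to 5.13%. The ligase Lig1 was found in 31.8% of cells of L32 HSC-3, against 20.5% to 22.7%. The single-strand binding subunit Rpa2 was found in 16.3% of cells of L29 HSC-4, against 34.2% to 41.3%, and that set also had the fewest genes per cell. L32 HSC-4 had the largest share of cells with at least 20 of the genes, 15.8%, against 6.98% to 11.4% in the other sets. In plate 2, column 8 of that set 7 wells held 6550 to 8098 genes each, and without them Prim1 was found in 25.8% of its cells, Rrm2 in 6.45%, and 12.9% held at least 20 of the genes.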

How the results depend on the processing

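Of 150 recomputed values 137 stayed close, that is, within 1 SD over sets or, for counts, within 1.5 times, 13 moved further and 0 reversed. At 1 CPM, 5 genes reached 50% of cells, the median share was 28.4%, the median cell held 10 genes and 153 pairs had an adjusted phi of at least 0.2. At 50 CPM the median share was 16.8%, the median cell held 6 genes and 337 pairs passed 0.2. After thinning to 100000 counts the median share was 25.9% and 153 pairs passed 0.2. With the plate as the only covariate, the median rho was 0.196 with G2/M genes and 0.214 with RNA content. Without the G2/M cells 120 pairs passed 0.2, and without the cells with at least 20 genes, an alternative chosen after seeing the data whose direction its choice of cells fixes, 15 did and the median phi was 0.020. Leaving out each set gave 33 to 35 genes at 10% of cells, a median phi of 0.131 to 0.160, 242 to 322 pairs, 8.76% to 10.6% of cells with at least 20 genes, and a median rho of 0.112 to 0.145 with G2/M genes and 0.020 to 0.083 with RNA content. No paired analysis was possible because there is 1 group. At 2.80 reads for 10 CPM in the median cell, a gene not called is not shown to be absent.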

Other observations

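Genes outside the list whose level most resembled the mean level of the 43 were named by mean partial rho within 6 sets of 232 cells in all, given genes detected, total counts and plate. First stood Ranbp1, a cofactor of the Ran nuclear transport cycle, at 0.36 (positive in 5 of 6 sets), followed by Pcna-ps2 at 0.35, the remodeller Hells at 0.34, the Cdt1 inhibitor Gmnn at 0.33, Lsm3 of the RNA-binding Lsm ring at 0.32, Mcm2 at 0.31, the predicted gene Gm12870 at 0.31, the nuclear envelope gene Nrm at 0.31, the predicted gene Gm5391 at 0.30 and prothymosin alpha, Ptma, at 0.30. The mean level of the 43 holds Pcna, and 132 of the 133 cells with its pseudogene Pcna-ps2 also held Pcna. The place of Pcna-ps2 is therefore not independent of the list and supports nothing. The median over 9655 genes was 0.011. At the other end stood Txnip, an inhibitor of thioredoxin and glucose uptake, at -0.30, and the ribosomal protein gene Rps9 at -0.30. These correlations share their cells, libraries and depth.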
